A study of Mus musculus with 56 samples.

Results

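The genes described here encode enzymes and carriers of mitochondrial fatty acid oxidation: Cpt1a, Slc25a20, Cpt2, Acadvl, Acadl, Acadm, Hadha, Hadhb, Acaa2 and Etfdh. They were chosen by name, and the first row of each was taken from a table of RNA levels in mouse liver, which gave 10 of 23813 genes. Each of the 10 genes has 1 row in that table. Levels are RPKM (reads scaled to transcript length and to sequencing depth), so that genes can be compared per length. The table holds polyA-enriched RNA sequencing of 12 liver libraries, 4 in each of 3 groups. All mice were male, were made hypothyroid with a low-iodine diet containing PTU (propylthiouracil, which blocks the synthesis of thyroid hormone), and were then injected with triiodothyronine (T3) or vehicle on the last days. The groups were WT mice on PTU (hypothyroid WT), WT mice on PTU that received T3 (T3-treated WT), and L-NCORdeltaID mice on PTU (hypothyroid mutant). L-NCORdeltaID mice carry a mutant of the corepressor NCOR1, restricted to the liver, that lacks interaction domains for the thyroid hormone receptor, and this line was kept on a mixed strain background. The strain of the WT mice behind these libraries is not given in the sources used here. No mutant mice with T3 are in the table. The labels give no ages, and the study's supplement lists a lower mean age for its hypothyroid mutant mice than for its WT mice on PTU with or without T3, so that age and genotype cannot be told apart here. The series also deposited the positions of regions with acetylated histone H3, which were used for the gene starts.

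Fatty acids enter the mitochondrion as carnitine esters. Cpt1a on the outer membrane makes the ester, the carrier Slc25a20 exchanges it for free carnitine across the inner membrane, and Cpt2 restores the acyl-CoA inside. Each turn of the oxidation spiral then begins with an acyl-CoA dehydrogenase (Acadvl for very long, Acadl for long and Acadm for medium chains), goes on through hydration and a second oxidation, and ends with a thiolase that releases acetyl-CoA. For long chains the later steps are held by the trifunctional protein, made of Hadha and Hadhb, and for shorter chains by separate enzymes such as the thiolase Acaa2. The electrons taken by the dehydrogenases pass through electron transfer flavoprotein (ETF) to Etfdh, which hands them to ubiquinone. In liver this pathway feeds ketone body formation during fasting, and its genes are known targets of the fatty acid receptor PPARA. In the prevailing model, unliganded thyroid hormone receptor recruits NCOR1 to chromatin, and T3 releases it. The study found this pattern at only a subset of the receptor-bound enhancers that gained acetylation with T3. At another subset, NCOR1 occupancy was low without T3 and rose with it.

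Read from the smallest steps between RPKM values, depth was about 29.2 to 38.2 M reads in hypothyroid WT, 21.3 to 26.1 M reads in T3-treated WT and 38.1 to 42.8 M reads in the mutant libraries. At these depths a value of Hadhb, which had the lowest values of the 10 genes, rests on about 413 to 828 reads, and the other genes on at least 1860. Reads without molecular identifiers are not independent molecules, and depth differed between the groups. The targeted gene Ncor1 was at 14.1 to 15.6 RPKM in hypothyroid WT, 14.3 to 18.5 in T3-treated WT and 12.1 to 13.9 in the mutant (log2 difference of mutant and hypothyroid WT -0.18, limma adjusted p = 0.204). This value covers the whole transcript and therefore does not check the missing domains. The T3 target Dio1, a deiodinase, was at 0.719 to 57.7 RPKM in hypothyroid WT and at 459 to 641 in T3-treated WT, and Thrsp, a lipogenic gene induced by T3, was at 322 ± 128 RPKM in hypothyroid WT and at 1597 ± 652 in T3-treated WT (SD, n = 4), a log2 difference of 2.29 (adjusted p = 0.000813 by limma). Hepatocyte markers were abundant in all libraries, with summed levels of 37741 to 49355 RPKM in hypothyroid WT, 19593 to 28128 in T3-treated WT and 31597 to 35764 in the mutant. Of the 6, Alb (from 31804 to 14325 RPKM) and Ttr were called lower with T3 and Hnf4a higher. All 4 Kupffer cell markers in the table were higher in T3-treated WT, where their sum was 109 to 170 RPKM against 34.4 to 50.1 in hypothyroid WT and 38.9 to 87.3 in the mutant. The 5 stellate cell markers summed to 43.6 to 61.2 RPKM in hypothyroid WT, 74.6 to 90.3 in T3-treated WT and 58.6 to 95.7 in the mutant, and 2 of them were called higher with T3. In bulk tissue, fewer cells of a type and less RNA per cell cannot be told apart, and the part of cell composition in the results below was not tested.

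A few libraries stood apart. T3-treated WT replicate 3 had 631 RPKM of exocrine pancreas genes in sum, against 68.4 in the lowest T3-treated library. The whole T3-treated group was high in this sum, with 8.65 to 14.1 RPKM in hypothyroid WT and 3.92 to 8.43 in the mutant. Of the 4 genes, 1 was called higher with T3, Cela1 (log2 difference 3.26, limma adjusted p = 0.000178). Hypothyroid WT replicate 4 had 20.01 RPKM of muscle genes in sum, where the group median was 0.078. Mutant replicate 1 had 5.45 RPKM of muscle genes. The fatty acid oxidation genes followed libraries as well. In T3-treated WT, replicate 3 was the highest of 4 for 9 of the 10 genes and replicate 1 the lowest for all 10. In the mutant group, replicate 1 was the highest for 8 genes and replicate 4 the lowest for 6. Hypothyroid WT replicate 4 was the lowest for 7 genes. Whether tissue admixture had a part in this was not tested. Each comparison was also fitted without hypothyroid WT replicate 4, T3-treated WT replicate 3 and mutant replicate 1. These are called below the libraries that held muscle or pancreas genes. The other T3-treated libraries, with 68.4 RPKM or more of pancreas genes, stayed in these fits, which therefore do not remove that group difference.

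Acaa2 had the highest RNA level of the 10 genes in every group. Hadhb had the lowest value in the table, but its reads can be placed less well than those of the other genes, as described next. In hypothyroid WT, mean levels ranged from 563.6 ± 10.4 RPKM for Acaa2 through 195.8 ± 25.9 for Acadm and 151.7 ± 12.1 for Acadvl to 10.6 ± 0.806 for Hadhb (SD, n = 4). Between these, the 4 values of Cpt1a, Acadl, Hadha and Etfdh overlapped with their neighbours in rank at means of 90.0 to 100.6 RPKM, and so did those of Cpt2 and Slc25a20. With T3, Acadm moved from rank 2 to rank 6, among genes whose values overlapped, and Acadvl took rank 2. In the mutant, the values of Acadvl and Acadm overlapped at ranks 2 and 3. The 10 genes summed to 1340 to 1448 RPKM in hypothyroid WT, 1041 to 1312 in T3-treated WT and 1021 to 1263 in the mutant. Both other groups lay wholly below hypothyroid WT in this sum, of which Acaa2 was the largest part. In the same order of groups, mean Acaa2 was 563.6, 395.5 and 441.9 RPKM and mean Acadm 195.8, 80.7 and 136.9. Without Acaa2 and Acadm, the sums of both other groups overlapped those of hypothyroid WT. With T3 the log2 difference was above 0 for 4 of the 10 genes, so the lower sum does not describe each gene. As a percent of the RPKM of all genes, the sum was 0.325 to 0.363% in hypothyroid WT, 0.270 to 0.348% in T3-treated WT and 0.259 to 0.332% in the mutant, and on this scale both other groups overlapped hypothyroid WT.

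**Figure D1:**
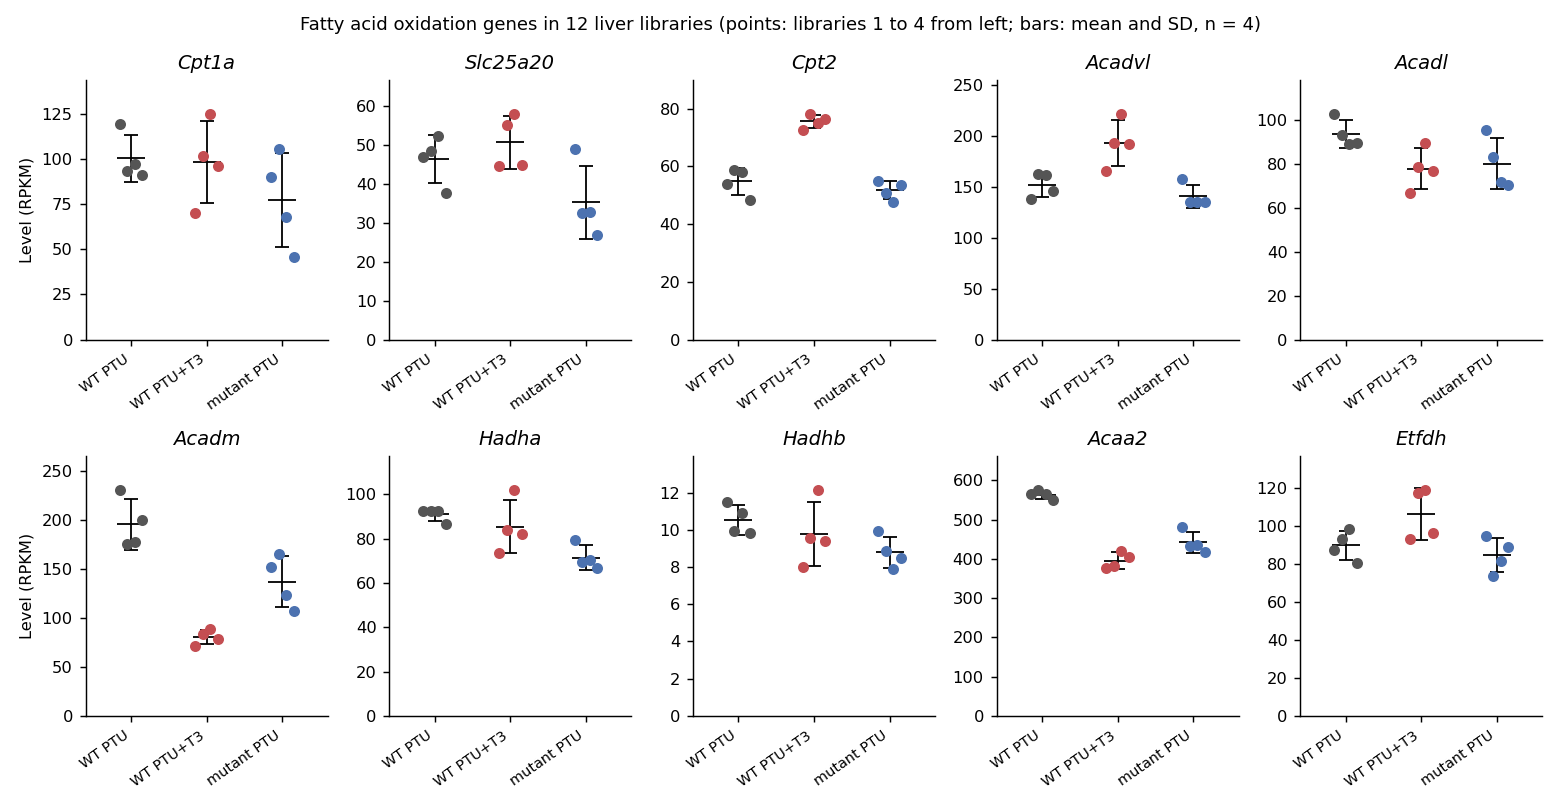
RNA level (RPKM, linear axis from 0) of the 10 fatty acid oxidation genes in hypothyroid WT (grey), T3-treated WT (red) and hypothyroid mutant (blue) livers. Points are the 4 libraries of a group in replicate order and bars give the mean and SD; Acadm and Acaa2 were lower and Cpt2 higher in all 4 T3-treated libraries than in any hypothyroid WT library.

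Hadhb differs from the other genes in how its reads can be placed. In the mm9 genome, 94.5% of the bases of its transcript recur at 95% identity or more elsewhere, while none of the other 9 transcripts had such a match of at least 100 bases. The closest copy is annotated as the pseudogene Gm13910, at chr2:108788953-108790885 on the plus strand, and differs from the Hadhb transcript at 5 of 1933 aligned bases, with a longest identical run of 986 bases. A further copy of 1934 bases at chr15:103416878-103418809 was 97.4% identical, and neither copy has a row in the table. The authors used uniquely aligned reads, and a read from an identical run has no unique place. How far this lowers the Hadhb level was not tested, so its level, and its ratio to Hadha, are read only as differences between groups. The following stretch of coding sequence, bases 290 to 349 of the Hadhb transcript, and its counterpart at chr2:108789133-108789192 (plus strand, mm9) show how little there is to tell them apart. The capital marks the only difference, G320A, where positions count from the first base of the transcript and the base of Hadhb comes first.
Hadhb: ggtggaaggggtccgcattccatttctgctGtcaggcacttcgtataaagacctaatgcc
Gm13910: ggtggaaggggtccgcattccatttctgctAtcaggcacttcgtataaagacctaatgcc

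The question of the first comparison was which of these genes respond to T3 in the liver of hypothyroid WT mice. With T3, 1 of the 10 genes rose (Cpt2) and 2 fell (Acadm and Acaa2), by limma on log2(RPKM + 0.1) with a Benjamini-Hochberg adjusted p below 0.01 over 13941 genes tested. Among all genes tested, 24.5% were called higher and 7.71% lower. The 4 values of the groups did not overlap for 4 of the 10 genes, higher with T3 for Cpt2 and Acadvl and lower for Acadm and Acaa2, where 35.8% of all genes tested were wholly higher and 10.8% wholly lower. The median log2 difference was -0.08 for the 10 genes and 0.23 for all genes tested. Because the median gene moved by this much, differences are also given relative to it, and 7 of the 10 genes lay below the median of all genes. Scaling each library by the median of its gene ratios brought that median to 0.04 and the share of calls that were higher from 76.0% to 52.4%. Under this scaling 0 of the 10 genes were called higher, while Acadl joined Acadm and Acaa2 as lower.

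**Figure D2:**
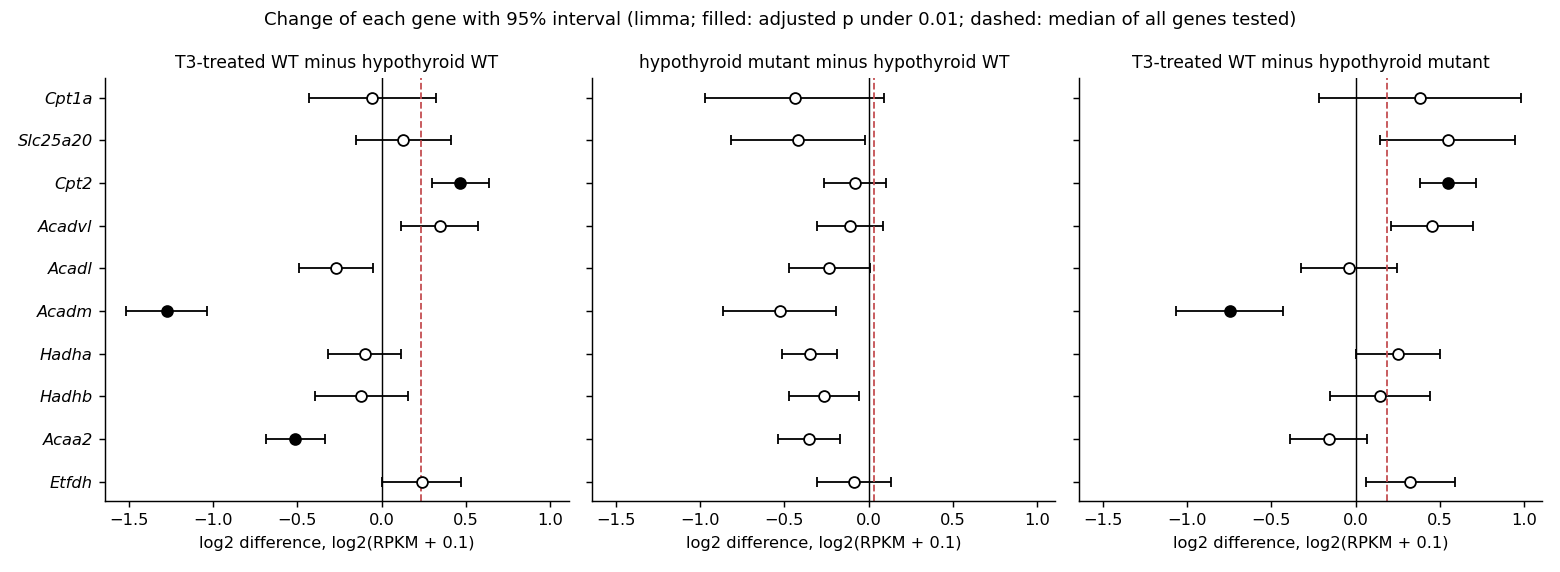
Log2 difference of each gene on the log2(RPKM + 0.1) scale with its 95% interval from limma for the 3 comparisons, with calls at an adjusted p below 0.01 filled and the median of all genes tested dashed. With T3, Acadm (-1.27) lies far to the left of the other genes, and all 10 genes lie below 0 in the mutant although none was called.

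In the carnitine shuttle, Cpt2 was the gene that changed with T3. Cpt2 lies at chr4:107576586-107596215 on the minus strand (mm9). Its level was 53.9, 58.6, 58.1 and 48.5 RPKM in hypothyroid WT replicates 1 to 4, 72.8, 78.3, 75.1 and 76.3 RPKM in T3-treated WT, and 54.8, 50.8, 47.8 and 53.6 RPKM in the mutant. All 4 T3-treated libraries were above all others, and the mutant values overlapped those of hypothyroid WT. The log2 difference with T3 was 0.47 (SE 0.0747, 95% interval 0.30 to 0.64, limma adjusted p = 0.00102), which is 0.23 above the median gene. Under the other scaling the log2 difference of Cpt2 was 0.27 with an adjusted p of 0.0188 and was not called. In the mutant the log2 difference from hypothyroid WT was -0.08 (95% interval -0.26 to 0.10), and T3-treated WT was 0.55 above the mutant (95% interval 0.38 to 0.71, limma adjusted p = 0.000664). The 200 bases upstream of the annotated start of Cpt2, at chr4:107596216-107596415, are shown for the gene that rose, on the minus strand. No match to the repeats described at the end, and hence no capital, is in this window.
Cpt2 upstream: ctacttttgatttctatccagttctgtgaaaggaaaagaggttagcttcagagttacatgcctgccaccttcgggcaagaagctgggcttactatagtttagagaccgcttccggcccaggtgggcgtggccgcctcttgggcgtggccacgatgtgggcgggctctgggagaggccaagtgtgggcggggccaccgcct

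Cpt1a and Slc25a20 were not called in any comparison. Cpt1a, the step that controls entry and is inhibited by malonyl-CoA, lies at chr19:3323301-3385732 on the plus strand. It was at 119.8, 93.6, 97.4 and 91.6 RPKM in hypothyroid WT, at 69.98, 102, 125 and 96.1 RPKM in T3-treated WT and at 90.1, 106, 67.9 and 45.6 RPKM in the mutant. Its values varied more between the libraries of a group than those of Cpt2, with a coefficient of variation of 33.9% in the mutant against 6.04%. The 3 groups overlapped, and the log2 difference with T3 was -0.05 with a 95% interval of -0.43 to 0.32. In the mutant it was -0.44, with an interval of -0.97 to 0.09 (limma adjusted p = 0.328). Slc25a20, the translocase at chr9:108564429-108586972 on the plus strand, was at 46.8, 48.5, 52.3 and 37.7 RPKM in hypothyroid WT, at 44.5, 55.0, 58.0 and 44.95 in T3-treated WT and at 48.8, 32.6, 32.6 and 26.9 in the mutant. Mutant replicate 1, which held muscle genes, was the only mutant library inside the range of hypothyroid WT. The log2 difference of Slc25a20 was 0.13 with T3 (95% interval -0.15 to 0.41) and -0.42 in the mutant (95% interval -0.82 to -0.02, limma adjusted p = 0.222). T3-treated WT was 0.55 above the mutant (limma adjusted p = 0.0366), which was called without mutant replicate 1 (0.72, adjusted p = 0.00497).

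The acyl-CoA dehydrogenases for different chain lengths did not move together. Acadm, the medium-chain enzyme, lies at chr3:153585321-153607596 on the minus strand. It was at 231, 175, 177 and 199.8 RPKM in hypothyroid WT, at 71.8, 83.4, 88.6 and 78.9 RPKM in T3-treated WT and at 152, 165, 123 and 108 RPKM in the mutant. The 3 groups did not overlap, with the mutant between the other two. T3 lowered Acadm by a log2 difference of -1.27 (SE 0.106, 95% interval -1.51 to -1.03, limma adjusted p = 3.39e-05), from 195.8 ± 25.9 to 80.7 ± 7.09 RPKM or 2.43-fold, and only 2.70% of all genes tested had a lower log2 difference. In the mutant the log2 difference from hypothyroid WT was -0.53 (95% interval -0.86 to -0.19, limma adjusted p = 0.0854) and was not called. Acadm was lower in T3-treated WT than in the mutant, by a log2 difference of -0.75 (95% interval -1.07 to -0.43, limma adjusted p = 0.00369). That call was lost without T3-treated WT replicate 1 (adjusted p = 0.0115), without T3-treated WT replicate 4 (0.0115), without mutant replicate 1 (0.0112), without the libraries that held muscle or pancreas genes (0.0215) and with the replicate number as a block (0.0121), at log2 differences of -0.69, -0.74, -0.69, -0.74 and -0.75. The 200 bases upstream of the start of Acadm, at chr3:153607597-153607796 on the minus strand, are shown for the gene that fell the most. They hold no match to the repeats either.
Acadm upstream: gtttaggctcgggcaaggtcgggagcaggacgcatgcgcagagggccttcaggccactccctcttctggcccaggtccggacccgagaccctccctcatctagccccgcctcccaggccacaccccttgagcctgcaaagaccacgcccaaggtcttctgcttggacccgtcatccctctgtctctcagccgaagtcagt

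Acadvl and Acadl were called in no comparison at an adjusted p below 0.01, and their differences with T3 had opposite signs. Acadvl, for very long chains, lies at chr11:69823685-69828913 on the minus strand. It was at 138, 162, 162 and 146 RPKM in hypothyroid WT, at 166, 192, 222 and 192 in T3-treated WT and at 157, 135, 135 and 135 in the mutant. All T3-treated values were above all others, with a log2 difference of 0.34 from hypothyroid WT (95% interval 0.12 to 0.57, limma adjusted p = 0.0197) and of 0.45 from the mutant (95% interval 0.21 to 0.70, limma adjusted p = 0.0106). Both passed the threshold without T3-treated WT replicate 1, at adjusted p = 0.00786 and 0.00789. Over 18 alternative fits at the same threshold, the difference with T3 ranged from 0.14 to 0.41. It was called in 1 of them, with limma adjusted p up to 0.209, and as reported it lay 0.11 above the median gene. The difference from the mutant ranged from 0.27 to 0.52 and was called in 3 of the 18, with limma adjusted p up to 0.0637. In the annotation Acadvl overlaps Dvl2 on the opposite strand, exons included. Mean Dvl2 was 1.95 RPKM in hypothyroid WT, 1.35 in T3-treated WT and 2.45 in the mutant. The microRNA gene Mir324, also on the opposite strand, was at 0.239, 1.34 and 0.628 RPKM in these groups. Whether reads of the overlapping genes contribute to the Acadvl values was not tested. Acadl, for long chains, lies at chr1:66877413-66909851 on the minus strand and was at 103, 92.9, 89.1 and 89.4 RPKM in hypothyroid WT, at 66.5, 78.5, 89.6 and 76.7 in T3-treated WT and at 95.1, 83.2, 71.8 and 70.1 in the mutant. The groups overlapped, since T3-treated replicate 3 lay above the lowest hypothyroid WT values. The log2 difference of Acadl with T3 was -0.27 (95% interval -0.49 to -0.05, limma adjusted p = 0.0423), and under the other scaling it was -0.47 and called (adjusted p = 0.00288).

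Of the trifunctional protein and the thiolase, Acaa2 fell with T3. It was at 565, 576, 564 and 550.1 RPKM in hypothyroid WT, at 375, 381, 420.2 and 406 in T3-treated WT and at 481, 433, 436 and 418 in the mutant. Both other groups lay wholly below hypothyroid WT and overlapped each other. The log2 difference with T3 was -0.51 (SE 0.0772, 95% interval -0.69 to -0.34, limma adjusted p = 0.000734), and mean RPKM fell by 29.8%. It was called under all 18 alternatives that kept the threshold. In the mutant it was -0.35 (95% interval -0.54 to -0.17, limma adjusted p = 0.0456), which missed the threshold although mean RPKM fell by 21.6%. T3-treated WT and the mutant differed by -0.16 on the log2 scale (95% interval -0.39 to 0.07).

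The genes for the subunits of the trifunctional protein lie head to head, Hadha at chr5:30444841-30481702 on the minus strand and Hadhb at chr5:30481788-30511133 on the plus strand. The 85 bases between their annotated starts, at chr5:30481703-30481787 on the plus strand, hold 9 CG pairs at a GC content of 69.4% and are shown because both genes start from them.
Hadha to Hadhb: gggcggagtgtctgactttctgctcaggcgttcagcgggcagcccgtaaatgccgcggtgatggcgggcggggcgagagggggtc
Hadha was at 92.4, 92.3, 92.3 and 86.8 RPKM in hypothyroid WT, at 73.5, 83.8, 102 and 82.3 in T3-treated WT and at 79.5, 69.3, 70.4 and 66.7 in the mutant. T3-treated values lay on both sides of hypothyroid WT, and all mutant values lay below it. The log2 difference was -0.10 with T3 (95% interval -0.32 to 0.12) and -0.35 in the mutant (95% interval -0.51 to -0.19, limma adjusted p = 0.0296). Hadhb, on the scale limited by its copies, was at 9.83 to 11.5 RPKM in hypothyroid WT, 8.01 to 12.2 in T3-treated WT and 7.90 to 9.92 in the mutant. Its log2 difference was -0.12 with T3 (95% interval -0.40 to 0.16) and -0.26 in the mutant (95% interval -0.47 to -0.06, limma adjusted p = 0.147).

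Etfdh, the last step before ubiquinone, lies at chr3:79407710-79432785 on the minus strand. It was at 87.5, 93.0, 98.6 and 80.8 RPKM in hypothyroid WT, at 93.0, 117, 119 and 96.5 in T3-treated WT and at 94.8, 73.7, 81.6 and 89.0 in the mutant. Both T3-treated replicates 2 and 3 were above all other libraries, while replicates 1 and 4 lay among the hypothyroid WT values. The log2 difference with T3 was 0.24, beside 0.23 for the median gene (95% interval 0.00 to 0.47, limma adjusted p = 0.0858). In the mutant it was -0.09, with an interval of -0.31 to 0.13.

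The second comparison asked how these genes differ between the NCOR1 mutant and WT without T3. In this mutant the study found less of the deacetylase HDAC3, a partner of NCOR1, also at a number of sites not bound by the receptor. It proposes that the deleted domains may also serve contacts with other regulators. None of the 10 genes was called, against 0.725% of 13790 genes called higher and 0.544% called lower by limma, and 5 of the 10 were lower at an unadjusted p under 0.05, as were 7.77% of all genes tested. At an adjusted p below 0.05, Hadha and Acaa2 were lower, as were 1.86% of all genes tested. The log2 difference was below 0 for all 10 genes, from -0.53 for Acadm to -0.08 for Cpt2, where 44.2% of all genes tested were below 0. Their median was -0.31 against 0.03 for all genes tested. Acadm, Hadha and Acaa2 were lower in every mutant library than in any hypothyroid WT library, as were 5.36% of all genes tested, and none of the 10 was wholly higher, as were 7.78%. The 10 genes share libraries, so the common sign is a description of these 8 libraries. In the T3 comparison, 6 of the 10 log2 differences were below 0 beside 30.1% of all genes tested. Both comparisons use the same 4 hypothyroid WT libraries.

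The third comparison set T3-treated WT against the hypothyroid mutant directly. Genotype and treatment both differ between these groups, so a difference here cannot be assigned to either. Cpt2 was higher and Acadm lower in T3-treated WT, with the values given above, among 15.5% of 14017 genes called higher and 5.70% called lower. The values of Cpt2 and Acadvl were wholly higher in T3-treated WT, as were 28.7% of all genes tested, and those of Acadm wholly lower, as were 9.57%. The log2 difference was above 0 for 7 of the 10 genes and below 0 for Acadm, Acaa2 and Acadl, where 33.6% of all genes tested were below 0. The median was 0.29 for the 10 genes and 0.19 for all genes tested. Under the other scaling the share of calls that were higher moved from 73.1% to 47.1%, Cpt2 and Acadm kept their calls, and the log2 difference of Hadhb turned from 0.14 to -0.04.

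Ratios of 2 genes within a library do not depend on how the library was scaled. In hypothyroid WT the Acadvl to Acadm ratio was 0.778 (geometric mean), with T3 it was 2.39 and in the mutant 1.04. T3 thus multiplied the ratio by 3.07, and the 4 values of the groups did not overlap. The Acadl to Acadm ratio went from 0.480 to 0.962 with T3, 2.00-fold, and that of Hadha to Acaa2 went from 0.161 to 0.215. In an exact two-sided permutation test each of these 3 changes had p = 0.0286, the smallest that 4 against 4 libraries can give, and an adjusted p of 0.0714 over the 15 ratios and comparisons tested, of which 0 passed 0.05 and 6 had the smallest p. With only 6 of the 15 at the smallest p, an adjusted p below 0.05 was out of reach, so the adjusted values cannot decide these changes. The same 3 ratios differed between T3-treated WT and the mutant at the same exact p. The Hadha to Acaa2 ratio was 0.161 in hypothyroid WT and 0.162 in the mutant (exact p = 0.943). The Hadha to Hadhb ratio was 8.63, 8.76 and 8.15 in hypothyroid WT, T3-treated WT and mutant (exact p = 0.771 with T3), and the Cpt1a to Cpt2 ratio went from 1.83 to 1.27 with T3 (exact p = 0.0571, adjusted p = 0.107).

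**Figure D3:**
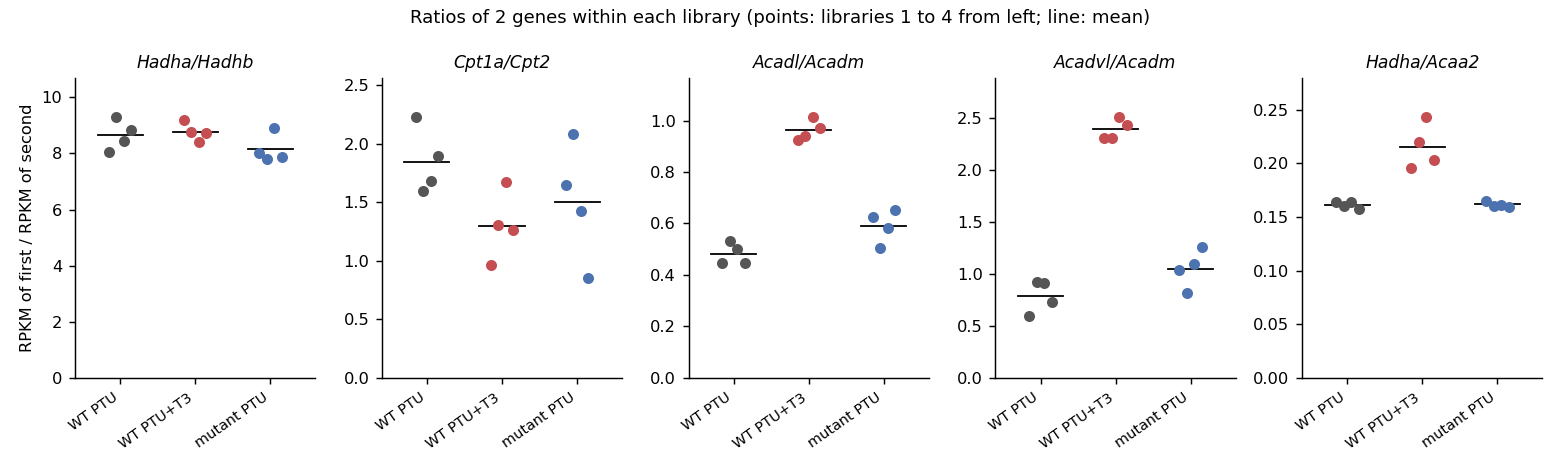
Ratio of the RPKM of 2 genes in each library (linear axis from 0) for 5 pairs, in hypothyroid WT (grey), T3-treated WT (red) and mutant (blue), with points in replicate order and a line at the mean. The T3-treated libraries stand apart for Acadl/Acadm, Acadvl/Acadm and Hadha/Acaa2, and the Hadha/Hadhb ratio overlaps in all 3 groups, from 7.81 to 9.28.

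Of 33 further genes around the pathway, 32 were tested with T3, of which 7 rose and 9 fell, where 24.5% of all genes tested rose and 7.71% fell. Before the shuttle, acyl-CoA synthetases attach fatty acids to CoA. Acsl1, the main form in liver, fell from 253 to 123 RPKM (log2 difference -1.05, limma adjusted p = 0.000123), while Acsl3 (0.80) and Acsl4 (0.58) rose, from 5.86 and 16.2 RPKM, and Acsl5 (-0.52) fell. Slc22a5, the carnitine transporter of the cell membrane, went from 5.09 to 11.8 RPKM, a rise of 1.19 on the log2 scale (adjusted p = 0.000643, limma). Of the genes around malonyl-CoA, the inhibitor of Cpt1a, both Acacb, which makes it at the mitochondrion, and Mlycd, which removes it, rose with T3 (1.18 and 0.36). In the mutant, Acacb was at 28.1 RPKM against 9.84 in hypothyroid WT, a rise of 1.49 on the log2 scale (adjusted p = 0.00791, limma), and this was the only one of the 33 genes called there. Its call in the mutant was lost when any library other than mutant replicate 2 was left out, at adjusted p = 0.0160 to 0.0255.

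In the later steps, Etfb and Pcca were called higher with T3 and the other called genes lower. All 9 genes for short chains and other steps had log2 differences below 0 with T3, and 4 were called: Acad10 (-1.22), Hsd17b10 (-0.70), the short-chain hydratase Echs1 (-0.53) and the short-chain hydroxyacyl-CoA dehydrogenase Hadh (-0.51). Of all genes tested, 30.1% were below 0 and 7.71% were called lower. Hadh was at 179 to 208 RPKM in hypothyroid WT and at 132 to 138 in T3-treated WT, with no overlap. Eci1, an isomerase for unsaturated chains, fell from 96.6 to 62.3 RPKM (-0.65, limma adjusted p = 0.00154). Etfb, a subunit of the electron carrier that serves Etfdh, was at 219 RPKM and rose to 305 with T3 (0.48, adjusted p = 0.000643 by limma), while its partner Etfa was at 161 and 178 RPKM and was not called. Among branched-chain and odd-chain genes, Mcee (-0.60) and Acadsb (-0.33) fell and Pcca (0.34) rose. Under the other scaling 8 of the 25 genes named from these lists with T3 lost their call, with no change of sign: Acacb, Acsl3, Acsl4, Etfb, Mlycd, Pcca, Pdk4 and Rxra. When libraries were left out, 13 of the 25 kept their call throughout, and Acacb, Acadsb, Acsl3, Acsl4, Cyp4a10, Dio1, Echs1, Mcee, Mlycd, Pcca, Pdk4 and Rxra lost it at least once.

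**Figure D4:**
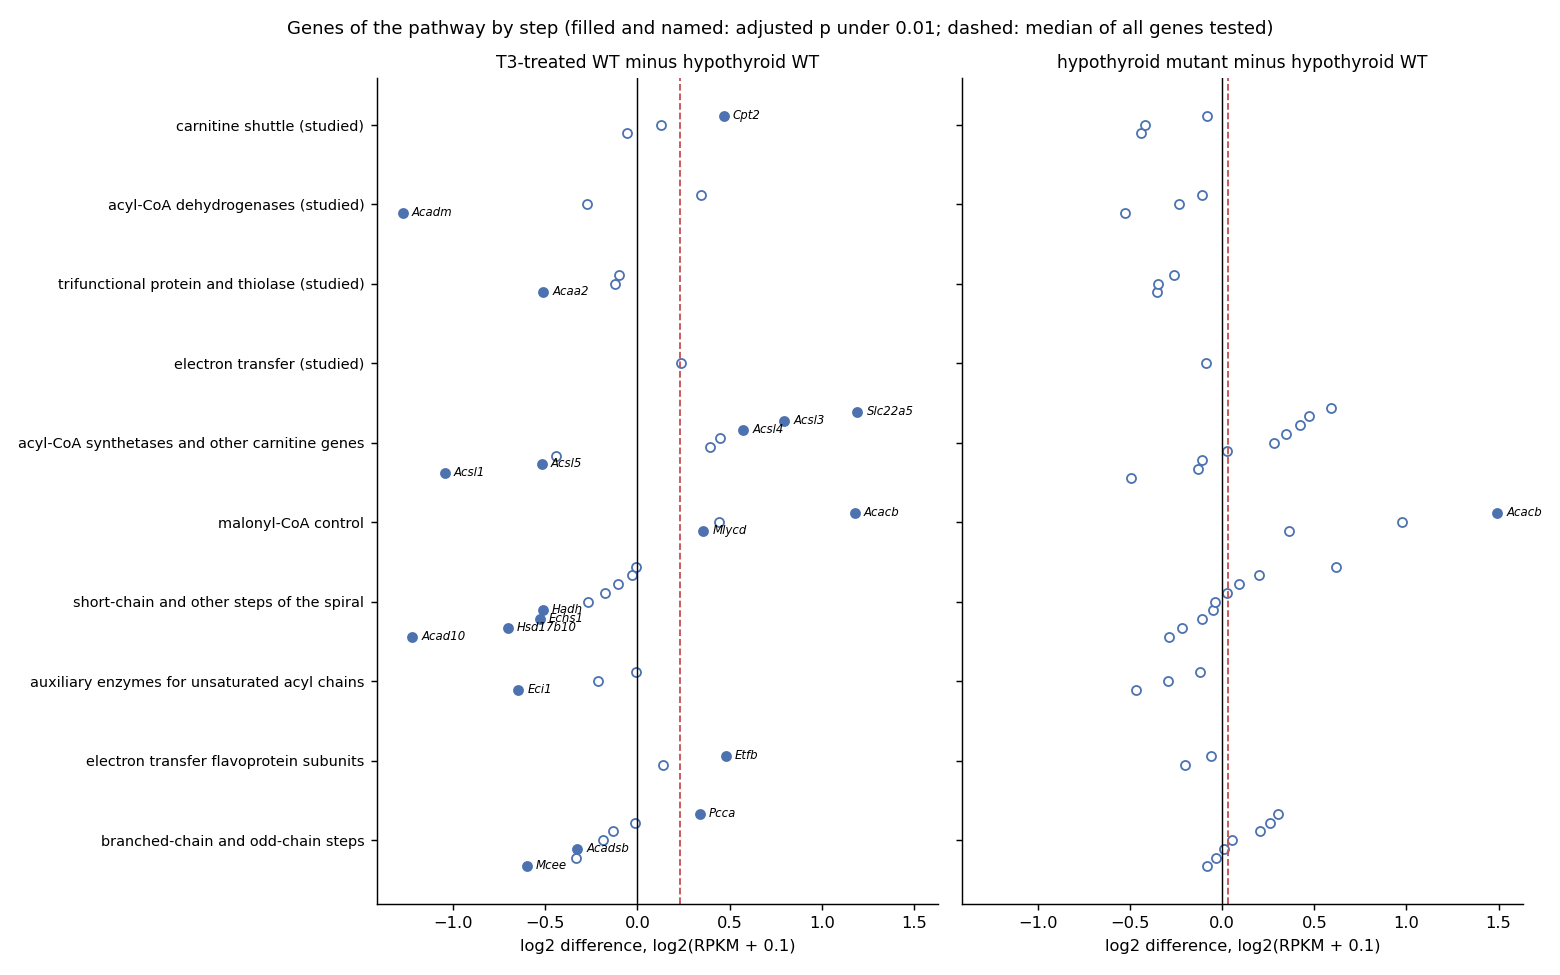
Log2 difference (log2(RPKM + 0.1)) of the 10 studied genes and 33 others around the pathway, by step, for T3 (left) and for the mutant (right), with called genes filled and named. With T3 the called genes lie on both sides of 0, those of the short-chain steps all to the left, and in the mutant Acacb is the only gene called.

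Regulators of the pathway were examined as well. Ppard, a receptor for fatty acids, was at 2.13 RPKM in hypothyroid WT and rose to 12.9 with T3 (log2 difference 2.51, adjusted p = 2.78e-05 by limma), and Rxra (0.49), the partner of the receptors, rose as well. Ppara was at 46.3 to 50.8 RPKM in hypothyroid WT and at 34.9 to 47.9 with T3 and was not called. Of 12 PPARA targets outside the pathway, 2 rose and 3 fell with T3. Plin2, a lipid droplet coat protein, rose from 99.1 to 231 RPKM, and Pdk4, a kinase that restrains pyruvate dehydrogenase, rose from 0.78 to 2.93. Acot1, a cytosolic thioesterase, fell from 7.29 to 0.725 RPKM (-3.26) and the omega-hydroxylase Cyp4a10 from 78.8 to 34.5 (-1.28). In the mutant, Ehhadh, which carries the middle steps of the spiral in peroxisomes, was at 277 RPKM against 86.3 in hypothyroid WT, a rise of 1.64 on the log2 scale (adjusted p = 0.00145, limma), with values of 216 to 395 against 78.8 to 93.4.

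All 10 gene starts lay inside a deposited acetylated region, as did 54.2% of 22380 annotated protein-coding genes. The list merges regions of the H3K9Ac and H3K27Ac marks from hypothyroid and T3-treated WT livers and gives no read numbers, so that acetylation per condition was not analysed here. The region over the start of Cpt1a, at chr19:3318534-3338378, was 19.8 kb long, longer than 96.2% of the regions over gene starts, whose median was 3796.5 bases. Hadha and Hadhb share a region of 13.6 kb at chr5:30472805-30486437, and Acadm has one of 8.47 kb. That of Acaa2 spans 15.5 kb. Cpt2 (5.49 kb), Acadl (4.545 kb), Etfdh (3.74 kb), Slc25a20 (3.35 kb) and Acadvl (3.19 kb) have shorter ones. Within 100 kb of the start there were 4 (Acadl) to 14 (Acadvl) regions, where the median protein-coding gene had 5. The genes that changed with T3 had 6 (Cpt2), 5 (Acadm) and 10 (Acaa2).

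**Figure D5:**
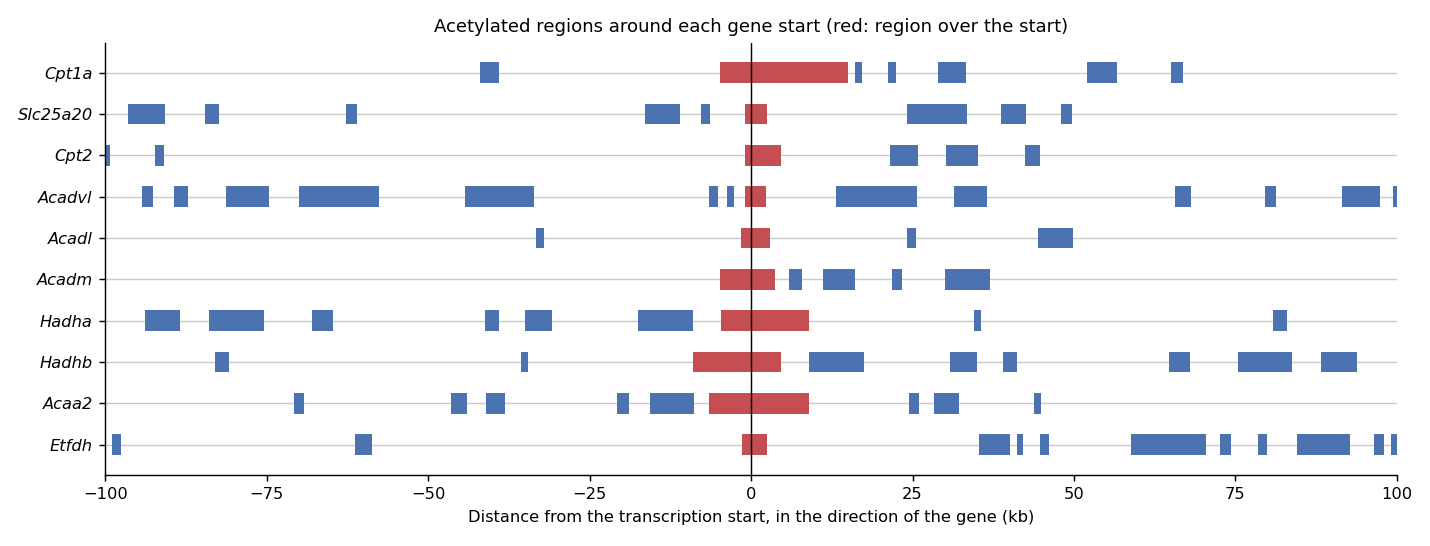
Acetylated regions within 100 kb of the start of each gene, drawn to scale by distance from the start in the direction of the gene, with the region over the start in red. Each of the 10 genes has a red region, the longest being that of Cpt1a at 19.8 kb; neighbouring regions less than 0.1 kb apart appear as 1 block.

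Thyroid hormone receptor and RXR bind direct repeats of AGGTCA spaced by 4 bases (DR4, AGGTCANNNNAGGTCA), and PPARA and RXR bind those spaced by 1 base (DR1, AGGTCANAGGTCA). With at least 11 of the 12 bases of the repeat matched on either strand, none of the 10 promoters (250 bases before to 50 after the start) held either repeat, and 0.242% of 22352 promoters held a DR4 and 0.488% a DR1. The DR1 of Acadvl given next begins 51 bases downstream of the start, just outside this window. Within the acetylated regions over the starts, the one shared by Hadha and Hadhb held a DR4, as did 16.6% of regions of like length (within 20%). It also held 2 DR1, where 33.2% of regions of like length held a DR1. The region of Cpt1a held 1 DR1 (43.5% of regions of like length), that of Acadvl 1 (8.23%) and that of Etfdh 2 (9.53%), that of Acaa2 held 1 DR4 (18.7%) and 1 DR1 (36.1%), while those of Cpt2, Acadm, Acadl and Slc25a20 held neither repeat. Those next to Hadha, Cpt1a and Acadvl that lie inside these genes are shown with the AGGTCA units in capitals, on the strand of the match. They lie in introns of Hadha at chr5:30475330-30475345 and chr5:30475191-30475203, in an intron of Cpt1a at chr19:3330485-3330497 and in an exon of Acadvl at chr11:69828850-69828862. The differences from the repeat, counted from its first base with the base of the repeat first, are T14G, A13C, T11A and A8T. A match is a run of letters and not a bound site.
Hadha DR4, minus strand: AGGTCAgaagAGGGCA
Hadha DR1, minus strand: AGGTCAgAGGTCC
Cpt1a DR1, plus strand: AGGTCAgAGGACA
Acadvl DR1, minus strand: AGGTCAgTGGTCA

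The mean profile of the 10 genes over the 12 libraries, each centred on its hypothyroid WT mean on the log2(RPKM + 0.1) scale, lay at -0.12 in T3-treated WT and at -0.29 in the mutant. Hadha (0.0641) and Hadhb (0.0695) were nearest to it by root mean square difference in log2 units, and Acadm (0.695) and Cpt2 (0.375) farthest. Of 4251 other genes with a mean of at least 10 RPKM, the 5 nearest were Fcgrt, an IgG receptor (0.0946), the mitochondrial ribosome genes Mrpl18 (0.0993) and Mrps6 (0.104), the co-chaperone Ptges3 (0.109) and Thyn1 (0.114). Fcgrt was at 81.4 RPKM in hypothyroid WT, 76.6 in T3-treated WT and 69.6 in the mutant. Nearness here is over 12 libraries that all genes share.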

How the data were processed

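Liver RNA of 12 libraries was analysed, each combining runs of 2 instrument models per the labels. The authors aligned reads to mm9 with STAR, kept uniquely aligned reads and used HOMER to produce the deposited RPKM, 1 value per transcript and library. Whether strand was used is not given in the sources used here. The merged list of acetylated regions deposited by the authors gives positions only. Of 31370 transcripts, 1 without a gene name was dropped, and the first transcript stood for each gene.

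For each comparison, genes reaching 0.1 RPKM in 4 or more of its 8 libraries entered limma (version 3.58.1, R 4.3.3), using log2(RPKM + 0.1), empirical Bayes with a trend, and Benjamini-Hochberg correction across every gene tested. A call is an adjusted p below 0.01. Fold changes on this scale understate those of low genes. The script was tested on simulated data. Replicates are numbered libraries, and p-values measure the spread between them. Ratios were compared by exact permutation tests. Depth was read from values of 0.02 to 0.3 RPKM as the read number that made most of them whole within 0.1 reads (65.4% to 73.8% of values), and it is approximate.

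The 10 genes and the lists were chosen with earlier results of these data known. Beyond the 10, the text names up to 4 called genes of each list with the largest change and at least 1 RPKM, check genes, overlapping genes and the 5 nearest in profile. Not every gene this rule gives is reported here. Acsl5 with T3, Etfa and Ppara were named after their values were seen. The fits without libraries that held muscle or pancreas genes were chosen after seeing the data. Gene positions are from GENCODE M1, and copies were searched with blastn 2.17.0. ChIP libraries were not used here.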

Additional observations from a re-analysis of the deposited data

Results flagged for a closer look

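In hypothyroid WT, Hadha was at 86.82 RPKM in replicate 4, the lowest of 4, while the other libraries lay between 92.3 and 92.4 RPKM. Its gap to the others passed the critical value of Dixon's test for 4 samples. The same library held muscle genes. In the mutant, Acadvl was at 157.003 RPKM in replicate 1, the highest of 4, while the others lay between 134.8 and 135.3 RPKM, and its gap passed the same value. That library also held muscle genes, and the part of these in either value was not tested. These were 2 of 45 groups examined, and chance gives such a gap in about 1 of 20 groups.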

How the results depend on the processing

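Acadm and Acaa2 kept their calls with T3 under all 18 alternatives at the same threshold, at adjusted p up to 0.00113 and 0.00517, and Cpt2 under 17. In the mutant comparison none of the 10 genes was called under any of the 18. Under median-ratio scaling, 0 of the 10 genes were higher with T3 and their median log2 difference was -0.28, with Slc25a20 at -0.074 (0.13 as reported), and Hadhb at -0.039 between T3-treated WT and mutant. At an adjusted p below 0.05, 2 were higher and 3 lower with T3 (5244 and 1636 of all genes), 0 and 2 in the mutant (344 and 257), and 3 and 1 between T3-treated WT and mutant (3995 and 1412). In that last comparison 2 were higher with a mean of at least 1 RPKM or with all 12 libraries in 1 fit. Without the libraries that held muscle or pancreas genes, Slc25a20 was at -0.036 with T3, and 0 of the 10 were lower in T3-treated WT than in the mutant. The cause of these changes was not tested.

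Leaving out single libraries gave 1 to 2 genes higher with T3 and a median from -0.19 to 0.034, with the upper values without T3-treated WT replicate 1. Cpt1a with T3 ranged from -0.18 to 0.10, and was at 0.032 without hypothyroid WT replicate 1. Between T3-treated WT and mutant, 1 to 2 genes were higher, 0 to 1 lower, and Acadl ranged from -0.11 to 0.049 (0.035 without T3-treated WT replicate 1). The log2 difference of the Hadha/Hadhb ratio with T3 ranged from -0.0136 to 0.0557 (-0.00129 without T3-treated WT replicate 1), that of Hadha/Acaa2 in the mutant from -0.00832 to 0.00953 (-0.000417 and -0.00822 without hypothyroid WT replicates 2 and 4), and that of Cpt1a/Cpt2 between T3-treated WT and mutant from -0.41 to 0.019. Within 50 kb the median number of acetylated regions was 5, against 9.5 within 100 kb.

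The labels do not say whether the replicate numbers pair the samples. Correlations of same-numbered libraries ran from -0.145 to 0.175, which cannot decide this, since no reference range was set. In the T3 comparison, hypothyroid WT replicates 1 and 3 correlated best with the same number, and replicates 2 and 4 with another. No replicate of the other comparisons correlated best with its own number. With the replicate number as a block, 2718 genes were higher and 888 lower with T3 (3413 and 1075 without it), 20 and 25 in the mutant (100 and 75), and 1152 and 490 between T3-treated WT and mutant (2176 and 799), where 0 of the 10 genes remained lower. The mutant comparison called 10 higher and 11 lower without the libraries that held muscle genes, and 139 and 118 with all 12 libraries in 1 fit.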
